A study of Homo sapiens with 16 samples.

Results

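Interferon-stimulated antiviral genes were followed in 8 human blood cancer cell lines that were each kept with either of a pair of peptides. The 39 genes were taken by symbol from the 23230 gene symbols of the count tables: 35 genes that interferons are known to induce and 4 transcription factors that act on or within the interferon response (IRF1, IRF7, IRF9 and STAT2). All 39 symbols were present in all 16 libraries, and 37 of them passed the filter on low counts, as did 13043 symbols in all. The 2 that did not pass it were IFI27 and IFI44L, which were abundant in few libraries.

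The Y518R peptide binds DPY30, a subunit of the complexes that methylate lysine 4 of histone H3, and the 3R peptide, the control, does not bind it. Each line gave 1 library with Y518R and 1 with 3R. An MLL fusion is carried by 4 lines: MLL-AF4 by RS4-11, MLL-ENL by KOPN8, and MLL-AF9 by both THP1 and MOLM13. The 4 without one are RAJI, which comes from Burkitt's lymphoma, P493-6, which models that lymphoma, K562, a BCR-ABL leukemia, and JURKAT, a leukemia of T cells labelled as Myc dependent. All lines grew in Advanced RPMI with 2.5% fetal bovine serum, and the sources used here state neither the dose of peptide nor the time on it. No line was treated with interferon according to the labels, so the level with 3R is called the basal level here. Each line is a single established culture with no second library per peptide, so a ratio within a line has no replicate check.

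Type I interferons bind a receptor made of IFNAR1 and IFNAR2, whose kinases JAK1 and TYK2 activate STAT2 among other STATs. Together with IRF9, STATs form the complex ISGF3, which binds a promoter element called the interferon-stimulated response element and turns on a large set of antiviral genes. Monocytes are known for a strong response of this kind, and many cells also keep a low level of these genes without added interferon.

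Libraries held 19354300 to 43003124 gene counts. The identity markers fitted the labels: HOXA9, a target of MLL fusions, was at 10.1 CPM or more in all 8 libraries of the lines with such a fusion and at no more than 1 count in those of the other lines. LYZ (monocytic), CD79A (B cell), CD3D (T cell) and GATA1 (erythroid) were each abundant in the lines of that lineage. With 3R, LYZ was at 10 CPM or more in 3 lines, CD79A in 5, CD3D in 1 and GATA1 in 1. LYZ and CD79A were thus not confined to lines of their lineage. 1 library stood apart: reads that fell in no gene made up 44.7% of the RAJI 3R library, against 23.4% of the RAJI Y518R library and 17.7% to 26.9% of the 14 others. The same RAJI 3R library was rich in transcripts that normally carry no poly(A) tail, named here after their values were seen: RPPH1, the RNA of RNase P, had 1.82 CPM with Y518R and 212 CPM with 3R. Every RAJI ratio below rests on that library, and its part in them was not tested. Such transcripts also differed at far lower levels in other lines. In THP1, RPPH1 had 11 counts with Y518R and 36 counts with 3R, and RMRP, the RNA of RNase MRP, had 18 counts with Y518R and 93 counts with 3R. In K562, RPPH1 had 89 counts with Y518R and 7 counts with 3R. The part of this difference in the THP1 ratios was not tested, and reads in no gene made up 17.7% of the THP1 Y518R library and 19.4% of the THP1 3R library. The housekeeping genes GAPDH and ACTB, also named after their values were seen, were somewhat lower with Y518R in RAJI. GAPDH had 6779 CPM with Y518R and 7492 CPM with 3R, and ACTB had 5797 CPM with Y518R and 6557 CPM with 3R. These values do not test the part of the RAJI 3R library in the RAJI ratios.

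In THP1, the antiviral genes were higher with Y518R than with 3R nearly throughout, and in RAJI most were lower with Y518R. The 6 other lines showed little difference between the peptides. Levels are given as CPM (counts per library size after TMM scaling), and ratios within a line as log2 values with a prior count of 2, among genes at 10 CPM or more in either library of that line. In THP1, 36 genes reached that level, 35 of them had a ratio above 0, against 48.5% of all genes at that level, and their median log2 ratio was 1.38. In RAJI, 19 genes reached it, 1 of them (SP110) was above 0, against 50.8% of all genes, and the median was −0.56. The medians of the 6 other lines lay between −0.01 (K562) and 0.04 (RS4-11). Among all genes at this level the median was −0.01 in THP1 and 0.00 in RAJI. Over all 39 genes whatever their level, 38 were above 0 in THP1, with a median of 1.33, and 35 were below 0 in RAJI, with a median of −0.60. Because these are bulk libraries, more RNA per cell and a larger share of cells with the RNA cannot be told apart.

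**Figure D1:**
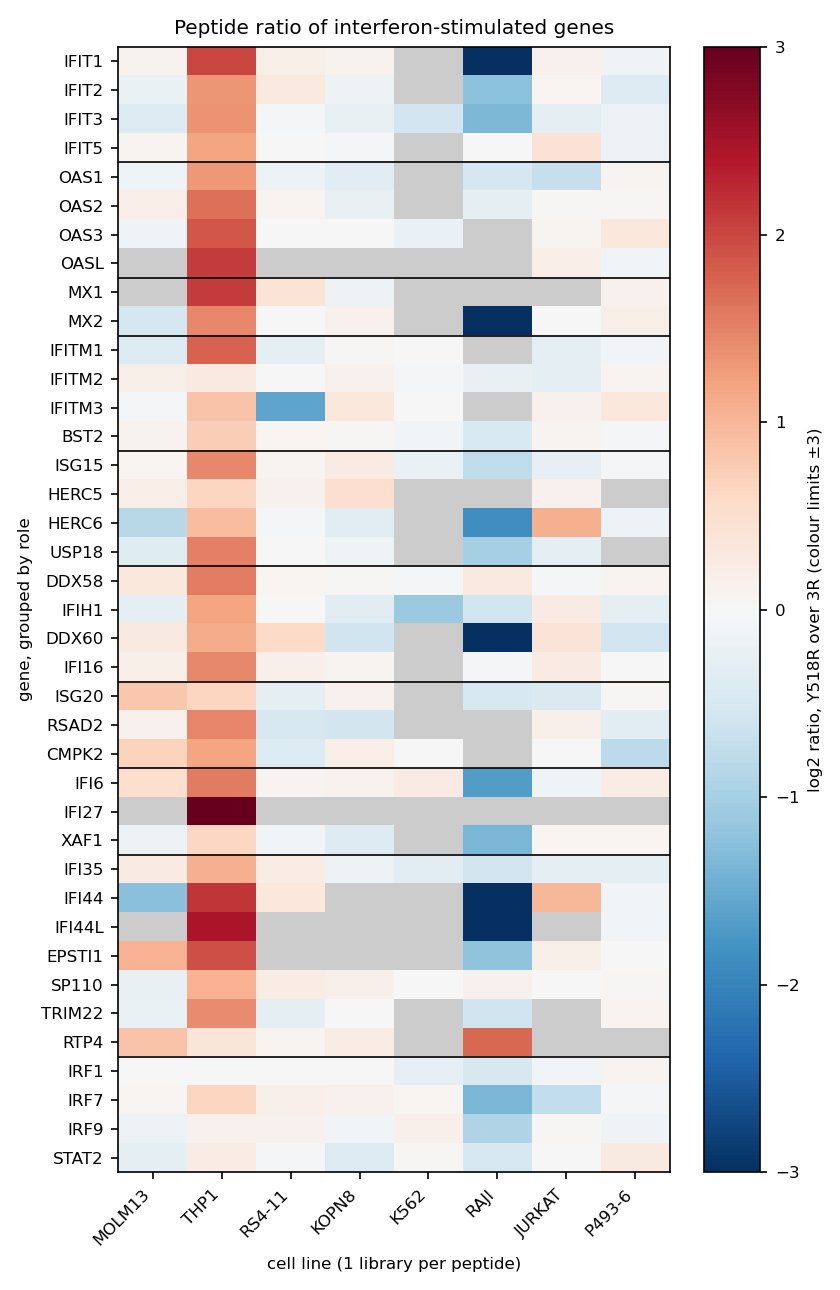
Log2 ratio of Y518R over 3R for the 39 genes, grouped by role down the page, in each of the 8 lines (prior count of 2). Red is higher with Y518R, blue is lower with Y518R, the colour scale ends at 3 in each direction, and grey marks genes under 1 CPM in both libraries of the line. The THP1 column is red over nearly its whole length and the RAJI column mostly blue, with medians of 1.38 and −0.56 among genes at 10 CPM or more.

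Counted at 2-fold or more, 26 of the 36 genes were higher with Y518R in THP1 and 0 were lower. A gene that reaches 10 CPM in 1 library only can differ in 1 direction only, and 8 of the 36 (IFIT1, IFIT2, OASL, HERC5, USP18, IFI27, IFI44L and EPSTI1) reached it with Y518R alone, 7 of them among the 26. Of the 28 at 10 CPM or more in both THP1 libraries, a level chosen after the values were seen, 19 were 2-fold or more higher, against 1.28% of all genes at that level. Among all 9770 genes at that level in THP1, 2.14% were 2-fold or more higher and 0.819% lower. In RAJI, 0 of 19 were 2-fold higher and 6 were 2-fold lower, against 0.0562% and 1.19% of the 8902 genes at that level. In RAJI 5 of the 19 (IFIT3, IFI6, XAF1, IFI35 and IFI44L) reached 10 CPM with 3R alone, and 4 of the 6 were among them. Of the 14 at 10 CPM or more in both RAJI libraries, EPSTI1 and IRF7 were 2-fold or more lower, 2 genes, against 0.528% of all genes at that level. With 1 CPM as the minimum, 13 of 30 were 2-fold lower in RAJI and 1 (RTP4) was 2-fold higher. In the 6 other lines, 0 genes of the list passed 2-fold in either direction at 10 CPM. At 1 CPM, EPSTI1 in MOLM13 and HERC6 in JURKAT were 2-fold higher, and IFI44 in MOLM13, IFITM3 in RS4-11 and IFIH1 in K562 were 2-fold lower. The shares of all genes past 2-fold at 1 CPM were not counted, so the 1 CPM counts, those of RAJI included, have no background to be read against. Among all genes at 10 CPM in those lines, 0.445% of all genes were 2-fold higher and 0.228% lower in MOLM13, 0.0109% higher and 0.0218% lower in KOPN8, 0.0222% higher and 0% lower in K562, and 0% in either direction in RS4-11, JURKAT and P493-6. Of 124 pairs of a gene and a line among these 6 lines, 121 lay within 0.5 of 0 on the log2 scale.

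The summed level of the 39 genes shows the same in CPM. THP1 had 3470 CPM with Y518R and 1467 CPM with 3R, a ratio of 2.37. RAJI had 958 CPM with Y518R and 1309 CPM with 3R, a ratio of 0.732. The 6 other lines had ratios of 0.977 to 1.06. With Y518R, the THP1 sum was above that of each of the 15 other libraries, of which the P493-6 libraries were nearest, with 2537 CPM with Y518R and 2535 CPM with 3R.

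The RNA-binding IFIT proteins, which hold viral RNA away from the ribosome, were all higher with Y518R in THP1. IFIT1 had 34.4 CPM with Y518R and 8.57 CPM with 3R in THP1, a 4.01-fold ratio with a counting interval of 3.50 to 4.60. In RAJI IFIT1 had 0 counts with Y518R and 46 counts with 3R, which is at least 15.6-fold lower with a floor of 3 counts per library. Across the 6 other lines IFIT1 ran from 0.228 over a median of 3.44 to 16.5 CPM with Y518R and from 0.0424 over 3.17 to 14.6 CPM with 3R. With Y518R, IFIT1 stood above that range in THP1 and was at 0 in RAJI.

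IFIT3 had 31.0 CPM with Y518R and 12.2 CPM with 3R in THP1. In RAJI it had 5.04 CPM with Y518R and 12.9 CPM with 3R, a ratio of 0.389 with an interval of 0.304 to 0.494. IFIT3 was slightly lower with Y518R in each of the 6 other lines, with log2 ratios from −0.56 to −0.03. IFIT2 had 17.4 CPM with Y518R and 6.86 CPM with 3R in THP1, and 3.95 CPM with Y518R and 9.30 CPM with 3R in RAJI. IFIT5 had 9.58 CPM with Y518R and 4.17 CPM with 3R there, and did not differ in RAJI (76 counts with Y518R and 75 with 3R).

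The promoter letters of 8 of these genes are shown because they carry, or lack, the element that ISGF3 binds. They are the 250 bases before the transcription start from RefSeq (GRCh38.p14), written along the gene, with matches to the interferon-stimulated response element in capitals, searched on both strands as GAAA, any 2 bases and GAAA again. A match on the other strand reads as TTTC, 2 bases and TTTC. The first 6 genes were at least 2.70-fold higher with Y518R in THP1 and were picked for holding matches, and the last 2 are subunits of ISGF3. Of 13 genes with a promoter entry and a THP1 ratio that high, 10 held a match in the wider window given after the letters, and 3 did not: DDX58 (2.90-fold), RSAD2 (2.79-fold) and IFI16 (2.74-fold). IFIT1 lies at chr10:89392373-89392622 on the plus strand, OAS3 at chr12:112938224-112938473 on the plus strand, ISG15 at chr1:1013247-1013496 on the plus strand, IFI6 at chr1:27672193-27672442 on the minus strand, IFI27 at chr14:94110486-94110735 on the plus strand, IFI44L at chr1:78620198-78620447 on the plus strand, IRF9 at chr14:24161015-24161264 on the plus strand and STAT2 at chr12:56360108-56360357 on the minus strand.
IFIT1: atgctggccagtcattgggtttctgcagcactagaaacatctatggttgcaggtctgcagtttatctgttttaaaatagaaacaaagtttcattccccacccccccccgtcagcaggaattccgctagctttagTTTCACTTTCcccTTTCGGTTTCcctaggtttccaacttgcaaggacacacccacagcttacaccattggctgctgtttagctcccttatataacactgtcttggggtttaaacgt
OAS3: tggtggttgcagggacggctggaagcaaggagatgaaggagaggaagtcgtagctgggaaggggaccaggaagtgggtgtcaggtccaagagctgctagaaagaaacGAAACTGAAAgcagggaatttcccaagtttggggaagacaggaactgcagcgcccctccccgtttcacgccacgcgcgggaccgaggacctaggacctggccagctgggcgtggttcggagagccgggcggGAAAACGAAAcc
ISG15: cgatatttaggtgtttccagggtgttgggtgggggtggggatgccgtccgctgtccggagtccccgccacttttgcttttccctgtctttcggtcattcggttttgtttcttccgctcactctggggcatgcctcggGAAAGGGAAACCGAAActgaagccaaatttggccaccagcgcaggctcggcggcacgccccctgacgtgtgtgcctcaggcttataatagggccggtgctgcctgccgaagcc
IFI6: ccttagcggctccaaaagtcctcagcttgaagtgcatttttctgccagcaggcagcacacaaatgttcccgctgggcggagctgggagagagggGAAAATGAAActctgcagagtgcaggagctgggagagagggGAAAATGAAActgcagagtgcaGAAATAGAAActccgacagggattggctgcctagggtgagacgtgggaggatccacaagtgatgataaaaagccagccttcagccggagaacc
IFI27: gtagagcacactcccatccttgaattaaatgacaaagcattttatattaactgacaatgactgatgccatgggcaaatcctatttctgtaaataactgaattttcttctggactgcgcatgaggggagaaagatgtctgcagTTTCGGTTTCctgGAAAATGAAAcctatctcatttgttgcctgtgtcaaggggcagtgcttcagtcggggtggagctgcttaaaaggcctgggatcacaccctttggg
IFI44L: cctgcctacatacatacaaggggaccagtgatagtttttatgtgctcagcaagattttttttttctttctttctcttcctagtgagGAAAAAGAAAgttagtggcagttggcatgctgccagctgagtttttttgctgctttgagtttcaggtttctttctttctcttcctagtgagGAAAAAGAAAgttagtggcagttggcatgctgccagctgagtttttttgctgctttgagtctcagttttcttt
IRF9: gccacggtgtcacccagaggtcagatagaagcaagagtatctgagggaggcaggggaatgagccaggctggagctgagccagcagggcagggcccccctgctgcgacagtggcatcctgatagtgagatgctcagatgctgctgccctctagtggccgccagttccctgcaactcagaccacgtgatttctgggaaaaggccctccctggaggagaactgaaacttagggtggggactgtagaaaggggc
STAT2: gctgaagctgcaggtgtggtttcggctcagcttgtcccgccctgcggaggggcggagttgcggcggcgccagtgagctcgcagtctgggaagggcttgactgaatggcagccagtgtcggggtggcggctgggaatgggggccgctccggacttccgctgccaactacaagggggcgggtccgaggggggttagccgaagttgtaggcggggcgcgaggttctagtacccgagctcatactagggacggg
The first 6 hold 2 or 3 matches each and the last 2 hold none. In ISG15 the matches overlap, as GAAAGGGAAACCGAAA, and in IFI44L the same match stands in both copies of a repeated stretch.

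Of the 39 genes, 31 had an entry among the RefSeq promoters, and those without one were IFIT2, OAS2, OASL, MX2, IFITM2, USP18, TRIM22 and IRF7. In windows of 300 bases, from 250 before to 50 after the start, 19 of the 31 (61.3%) held the response element letters, against 1255 of 35116 promoters of the same length (3.57%). The letters of the gamma-activated site that STAT dimers bind, TTC, any 3 bases and GAA, were in 9 of the 31 (29.0%) and in 7.66% of all promoters. Some matches of both motifs overlap, as in IFI27. The THP1 log2 ratios had a median of 1.43 over the 19 genes with the response element letters (0.36 to 3.04), and of 1.05 over the 12 without (−0.02 to 1.53), so the ranges overlap. A gene without a match lacks only these exact letters in this window.

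The oligoadenylate synthetases make the oligoadenylates that switch on RNase L, which cuts viral and cellular RNA. OAS3 had 325 CPM with Y518R and 88.8 CPM with 3R in THP1, and OAS2 had 268 CPM with Y518R and 85.2 CPM with 3R. OAS1 had 70.8 CPM with Y518R and 28.8 CPM with 3R. All 4 family members were 2-fold or more higher in THP1, including OASL, a family member that lacks the enzyme activity and binds RNA, at 19.2 CPM with Y518R and 4.46 CPM with 3R.

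In RAJI the family differed less. OAS1 had 18.1 CPM with Y518R and 26.2 CPM with 3R, and OAS2 had 114 CPM with Y518R and 138 CPM with 3R. OAS3 was hardly detected in RAJI, with 12 counts with Y518R and 14 counts with 3R. Levels between lines spread widely: OAS3 in the 6 other lines ran from 1.33 to 92.2 CPM with Y518R and from 1.44 to 92.6 CPM with 3R, and in none of these lines did its log2 ratio go beyond −0.20 or 0.32.

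MX1 and MX2, dynamin-like GTPases that block influenza virus and HIV among others, had large ratios in THP1. MX1 had 374 CPM with Y518R and 87.9 CPM with 3R, a 4.26-fold ratio with an interval of 4.08 to 4.44. MX2 had 127 CPM with Y518R and 46.3 CPM with 3R, a 2.74-fold ratio. MX1 was close to absent in RAJI, with 1 count with Y518R and 2 counts with 3R, so no direction can be read there. MX2 had 2 counts with Y518R and 49 counts with 3R in RAJI, a ratio of 0.0401 with an interval of 0.00473 to 0.153. P493-6, in which MX1 stood at 144 CPM with Y518R and 133 CPM with 3R, had a higher basal level than THP1 and a log2 ratio of 0.12.

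Among the membrane restriction factors, IFITM1, IFITM2 and IFITM3 stop viral membranes from fusing and BST2 (tetherin) holds budding virus at the cell. IFITM1 had 82.8 CPM with Y518R and 24.2 CPM with 3R in THP1, a 3.42-fold ratio. IFITM3 had 231 CPM with Y518R and 127 CPM with 3R, and BST2 had 213 CPM with Y518R and 129 CPM with 3R. These 2 stayed under 2-fold in THP1, as did IFITM2 at 64.1 CPM with Y518R and 53.4 CPM with 3R. The IFITM genes are near copies of one another, so the split of reads among them is uncertain.

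This group was also detected where other antiviral genes were not. K562 had the highest IFITM1 level of the 8 lines, with 441 CPM with Y518R and 434 CPM with 3R. BST2 was lowest in JURKAT, with 27.4 CPM with Y518R and 25.8 CPM with 3R, and at 106 CPM or more in all libraries of the other lines. In RAJI it had 132 CPM with Y518R and 181 CPM with 3R. IFITM3 in RS4-11 had 12 counts with Y518R and 53 counts with 3R, a log2 ratio of −1.58 at a level near 1 CPM.

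ISG15 is a ubiquitin-like protein, HERC5 is its main ligase in human cells and USP18 removes it from its targets and also damps the interferon receptor. ISG15 had 105 CPM with Y518R and 38.8 CPM with 3R in THP1, and 27.9 CPM with Y518R and 47.3 CPM with 3R in RAJI. USP18 had 23.4 CPM with Y518R and 8.10 CPM with 3R in THP1, and 10 counts with Y518R and 21 counts with 3R in RAJI. The ligase HERC5 had 12.3 CPM with Y518R and 7.78 CPM with 3R in THP1. HERC6, a related gene whose mouse counterpart is the main ligase in that species, had 29.8 CPM with Y518R and 15.5 CPM with 3R in THP1. Both HERC genes thus stayed under 2-fold while ISG15 and USP18 passed it.

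All 4 nucleic acid sensors were 2-fold or more higher with Y518R in THP1. DDX58 (RIG-I), which senses viral RNA ends, had 47.6 CPM with Y518R and 16.4 CPM with 3R. IFIH1 (MDA5), which senses long double-stranded RNA, had 88.6 CPM with Y518R and 38.8 CPM with 3R. IFI16, a sensor of DNA, had 91.5 CPM with Y518R and 33.5 CPM with 3R, and DDX60, a helicase related to RNA sensing, had 75.9 CPM with Y518R and 35.1 CPM with 3R. THP1 had the lowest IFI16 level with 3R of all lines but K562, and its log2 ratio in the 6 other lines ran only from 0.00 to 0.48.

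In RAJI, DDX60 and IFIH1 were lower with Y518R, and the direction of IFI16 and DDX58 cannot be told. DDX60 had 0 counts with Y518R and 33 counts with 3R, which is at least 11.2-fold lower. IFIH1 had 55.4 CPM with Y518R and 82.0 CPM with 3R. IFI16, at 273 CPM with Y518R and 281 CPM with 3R, and DDX58, at 136 counts with Y518R and 109 counts with 3R, had intervals of their ratios that include 1.

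Of the enzymes that act on nucleotides and RNA, RSAD2 (viperin) makes a nucleotide that ends viral RNA chains, CMPK2 is a mitochondrial nucleotide kinase encoded beside it, and ISG20 is an exonuclease. RSAD2 had 28.1 CPM with Y518R and 10.1 CPM with 3R in THP1, and CMPK2 had 90.9 CPM with Y518R and 40.0 CPM with 3R. ISG20 stayed under 10 CPM in THP1, with 4.37 CPM with Y518R and 2.78 CPM with 3R, and was highest in RAJI, with 76.9 CPM with Y518R and 107 CPM with 3R. RSAD2 had 0 counts with Y518R and 3 counts with 3R in RAJI, and CMPK2 had 0 counts with Y518R and 7 counts with 3R. These counts are too few to describe more than their direction.

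IFI27 and IFI6 are small membrane proteins of mitochondria and the endoplasmic reticulum, and XAF1 opposes the apoptosis inhibitor XIAP. IFI27 had the largest ratio of the list in THP1: 22.1 CPM with Y518R and 2.63 CPM with 3R, 8.43-fold with an interval of 6.70 to 10.7. It was nearly absent elsewhere, from 0 to 0.653 CPM with Y518R and from 0 to 0.387 CPM with 3R in the 6 other lines. IFI6 had 279 CPM with Y518R and 95.3 CPM with 3R in THP1, against a highest value of 24.4 CPM with Y518R and 26.7 CPM with 3R in the 6 other lines.

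Both IFI6 and XAF1 were 2-fold or more lower in RAJI. IFI6 had 7.64 CPM with Y518R and 24.6 CPM with 3R there, a ratio of 0.311 with an interval of 0.256 to 0.375. XAF1 had 8.98 CPM with Y518R and 23.3 CPM with 3R in RAJI, a ratio of 0.387. In THP1 XAF1 was already at 93.8 CPM with 3R and had 144 CPM with Y518R, a 1.53-fold ratio that stayed under 2-fold.

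The other induced proteins include IFI44 and IFI44L, whose functions are less well known, EPSTI1, the nuclear body protein SP110, the E3 ligase TRIM22, IFI35 and RTP4, a receptor transporter. IFI44L had 45.4 CPM with Y518R and 8.26 CPM with 3R in THP1, a 5.50-fold ratio. In RAJI IFI44L had 1.20 CPM with Y518R and 23.8 CPM with 3R, a ratio of 0.0501 with an interval of 0.0315 to 0.0762. In P493-6 it had 241 CPM with Y518R and 255 CPM with 3R, and in each of the 5 remaining lines it had at most 9 counts in any library. IFI44L was thus present in 3 lines and had a different ratio in each.

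EPSTI1 had 35.8 CPM with Y518R and 9.33 CPM with 3R in THP1, and 12.3 CPM with Y518R and 28.3 CPM with 3R in RAJI. IFI44 had 47.6 CPM with Y518R and 10.7 CPM with 3R in THP1, and 6 counts with Y518R and 114 counts with 3R in RAJI, a ratio of 0.0517. TRIM22, SP110 and IFI35 were 2.69-fold, 2.06-fold and 2.08-fold higher with Y518R in THP1. Among the genes at 10 CPM or more in RAJI, SP110 was the exception, with 35.6 CPM with Y518R and 32.4 CPM with 3R. Its interval of 0.985 to 1.23 includes 1. RTP4 was scarce everywhere, at no more than 8.90 CPM with Y518R and 6.93 CPM with 3R, both in THP1. In RAJI, RTP4 was also higher with Y518R, at a log2 ratio of 1.73 from a level under 10 CPM in both libraries.

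The transcription factors differed less between the peptides in THP1. IRF1 had 27.0 CPM with Y518R and 27.4 CPM with 3R. IRF9 had 61.7 CPM with Y518R and 56.5 CPM with 3R, and STAT2 had 97.3 CPM with Y518R and 83.8 CPM with 3R. IRF7, itself a gene that interferon induces, had 60.6 CPM with Y518R and 38.9 CPM with 3R, a 1.56-fold ratio. The median log2 ratio of the 4 was 0.17 in THP1, against medians of 0.80 to 1.77 over the other roles.

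In RAJI all 4 transcription factors were lower with Y518R. IRF7 had 11.0 CPM with Y518R and 28.4 CPM with 3R, a ratio of 0.386 with an interval of 0.328 to 0.454. IRF9 had 16.4 CPM with Y518R and 30.9 CPM with 3R. STAT2 had 46.6 CPM with Y518R and 65.5 CPM with 3R, and IRF1 had 44.3 CPM with Y518R and 61.4 CPM with 3R. Across the 6 other lines the log2 ratios of IRF1, IRF9 and STAT2 all lay between −0.41 and 0.26, and that of IRF7 reached −0.74 in JURKAT, at 81 counts with Y518R and 207 counts with 3R.

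**Figure D2:**
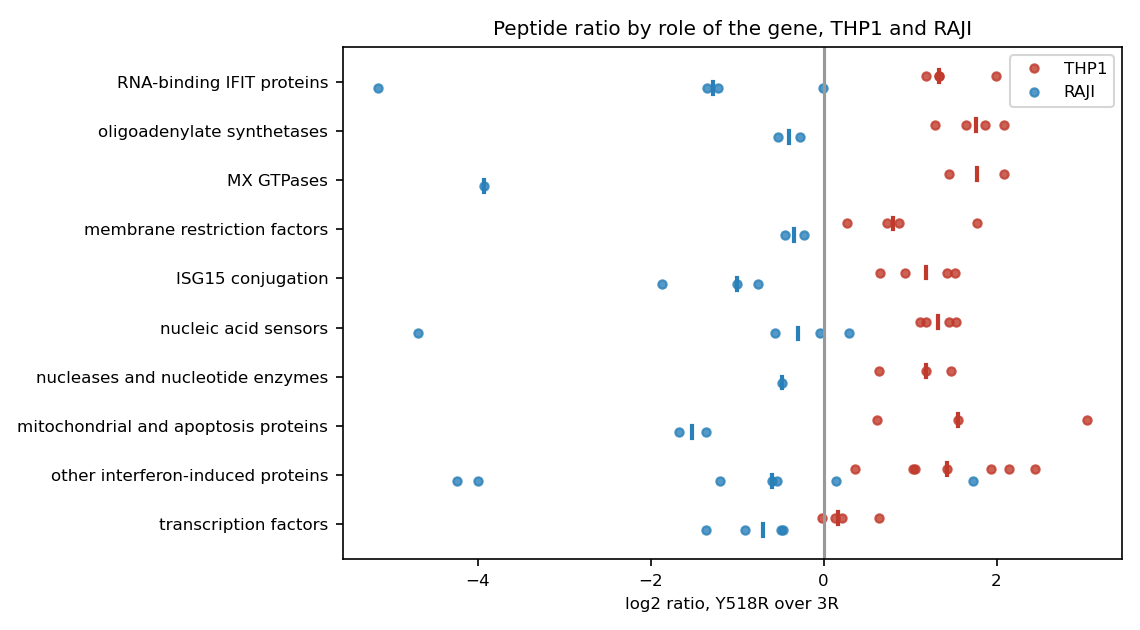
Log2 ratio of Y518R over 3R by role in THP1 and in RAJI, for genes at 1 CPM or more in either library of the line. Points are genes and bars are medians of a role. In THP1 all roles but the transcription factors (median 0.17) have medians of 0.80 or more, and in RAJI all role medians are below 0.

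Set side by side, the pattern covers many of the same genes in both lines. Of the 26 genes that were 2-fold higher in THP1, 12 reached 10 CPM in RAJI, and 11 of those 12 were below 0 there, 4 of them 2-fold or more lower. Of all 80 genes that were 2-fold higher in THP1 and at 10 CPM or more in both lines, 72.5% were below 0 in RAJI and 10% were 2-fold or more lower. Of the 6 genes that were 2-fold lower in RAJI (IFIT3, IFI6, XAF1, IFI44L, EPSTI1 and IRF7), those same 4 (IFIT3, IFI6, IFI44L and EPSTI1) were 2-fold higher in THP1, as were 7.55% of all 106 genes that were 2-fold lower in RAJI. Of these 4, IFIT3, IFI6 and IFI44L reached 10 CPM in RAJI with 3R alone, and IFI44L and EPSTI1 in THP1 with Y518R alone. In that line each could pass 2-fold in a single direction only. Of 18 genes at 10 CPM or more in both lines, 16 were higher in THP1 and lower in RAJI, against 22.8% of all 7991 genes at that level. The exceptions were IRF1, at a log2 ratio of −0.02 in THP1, and SP110. The lines share neither libraries nor controls. The list was proposed with the THP1 and RAJI ratios known, so these counts restate them and are no independent support.

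**Figure D3:**
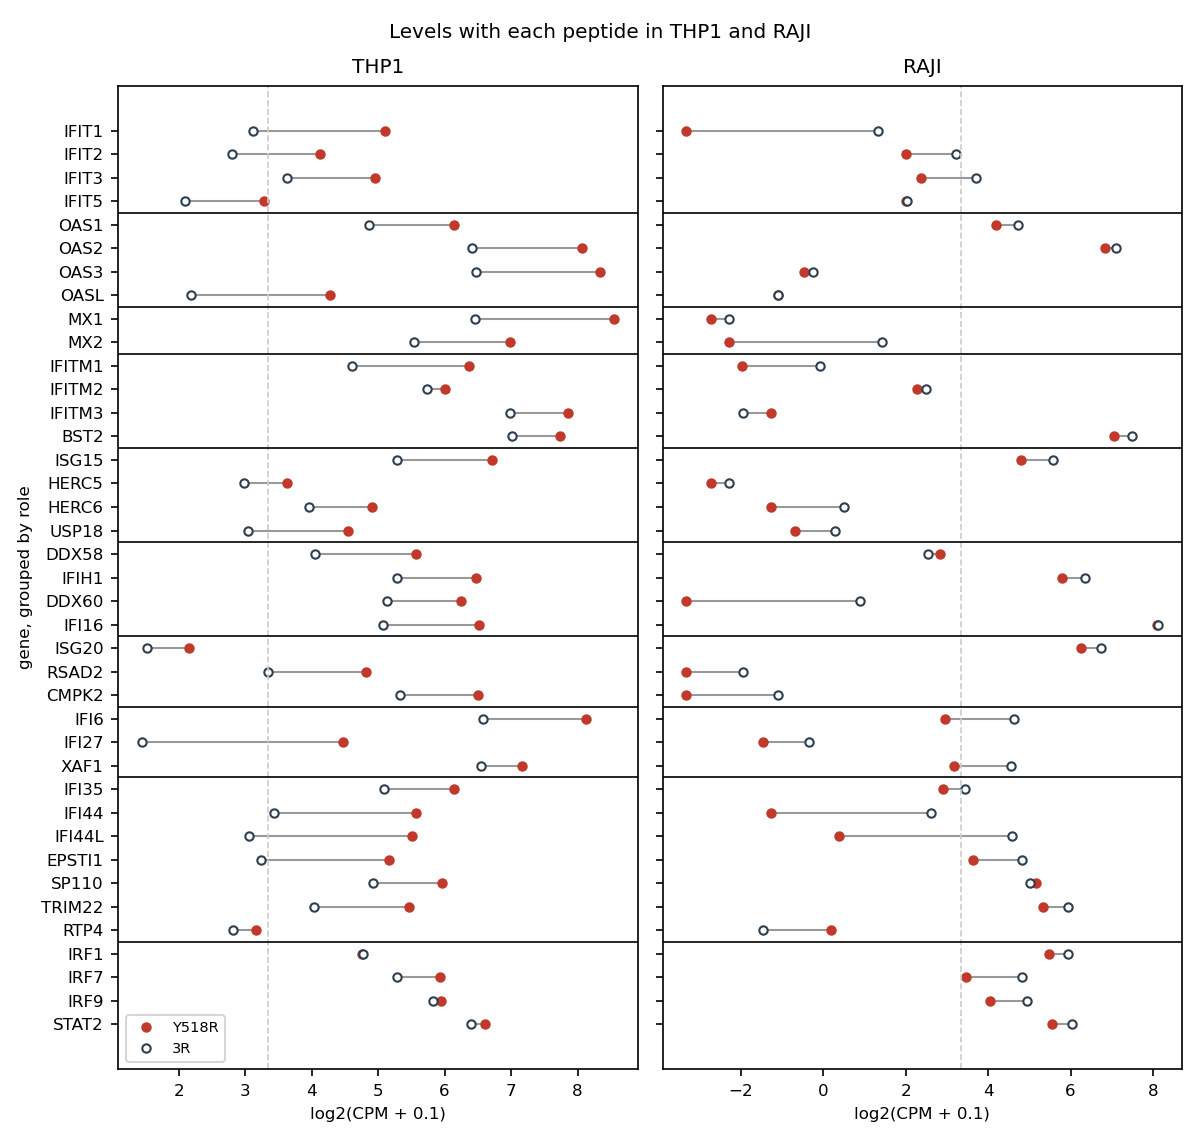
Level of each of the 39 genes with Y518R and with 3R in THP1 and in RAJI, as log2 of CPM plus 0.1, with a grey bar joining the libraries of a gene. The dashed line marks 10 CPM. Of the genes at 10 CPM or more, 35 of 36 are higher with Y518R in THP1 and 18 of 19 are lower with Y518R in RAJI.

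The basal level did not order the lines by their ratio. With 3R, the number of the 39 genes at 10 CPM or more was 28 in THP1, 27 in KOPN8, 27 in P493-6, 26 in RS4-11, 20 in JURKAT, 19 in RAJI, 17 in MOLM13 and 6 in K562. THP1 thus stood with 3 other lines at the upper end, and those 3 had median log2 ratios of 0.01 (KOPN8), 0.00 (P493-6) and 0.04 (RS4-11). RAJI stood between JURKAT and MOLM13, whose medians were 0.03 in both.

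By summed CPM with 3R the order was P493-6 (2535), RS4-11 (1877), KOPN8 (1808), THP1 (1467), RAJI (1309), MOLM13 (1005), JURKAT (903) and K562 (890). With 1 library per line, neighbours in this order cannot be told to differ. Spearman's rho between the median basal level of the 39 genes and the median ratio over the 8 lines was 0.41. With the mean level of both peptides in place of the 3R level, it was 0.64. The 3R library enters both the level and the ratio, and the mean level also holds the Y518R library, which enters the ratio too. With the 3R level, rho moved between 0.18 and 0.68 as each line was left out in turn. The median ratios of all lines but THP1 and RAJI lay between −0.01 and 0.04, so their ranks rest on small differences.

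**Figure D4:**
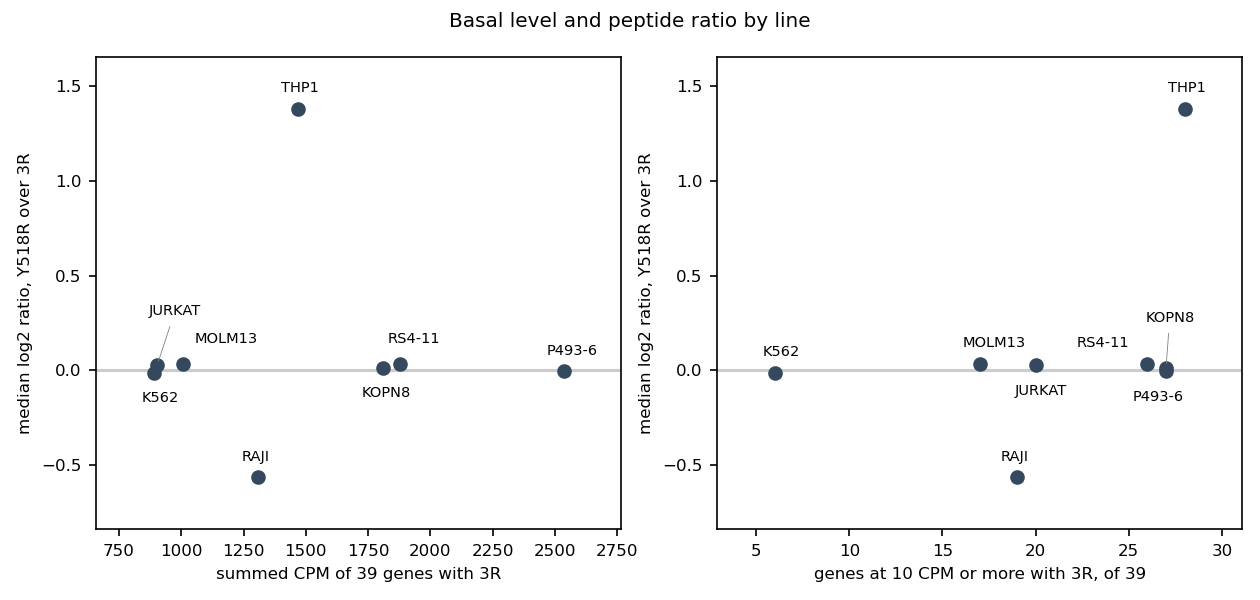
Median log2 ratio of Y518R over 3R of the genes at 10 CPM or more in each line (y axis) against the summed CPM of the 39 genes with 3R (left) and the number of the 39 at 10 CPM or more with 3R (right). Each point is 1 line. THP1 (1.38) and RAJI (−0.56) lie away from 0 at middle sums of 1467 and 1309 CPM, and the 6 other lines lie near 0 over the whole range from 890 to 2535 CPM.

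K562 lacked most of the antiviral genes. With 3R, IFIT5, OAS1, OASL, HERC6, IFI44 and RTP4 were at 0 counts there, where 3 counts would be 0.127 CPM. It held IFITM1 (434 CPM with 3R), BST2 (167 CPM), IFITM3 (87.6 CPM), IFITM2 (66.7 CPM), STAT2 (57.4 CPM) and ISG15 (13.6 CPM), and these 6 were its genes at 10 CPM or more. P493-6 had the highest 3R level of the 8 lines for a set that included OAS2 (185 CPM), MX1 (133 CPM), MX2 (85.0 CPM), IFI16 (524 CPM), IFI44L (255 CPM) and TRIM22 (260 CPM). Its levels with Y518R were close to these, at 190 CPM for OAS2 and 523 CPM for IFI16.

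**Figure D5:**
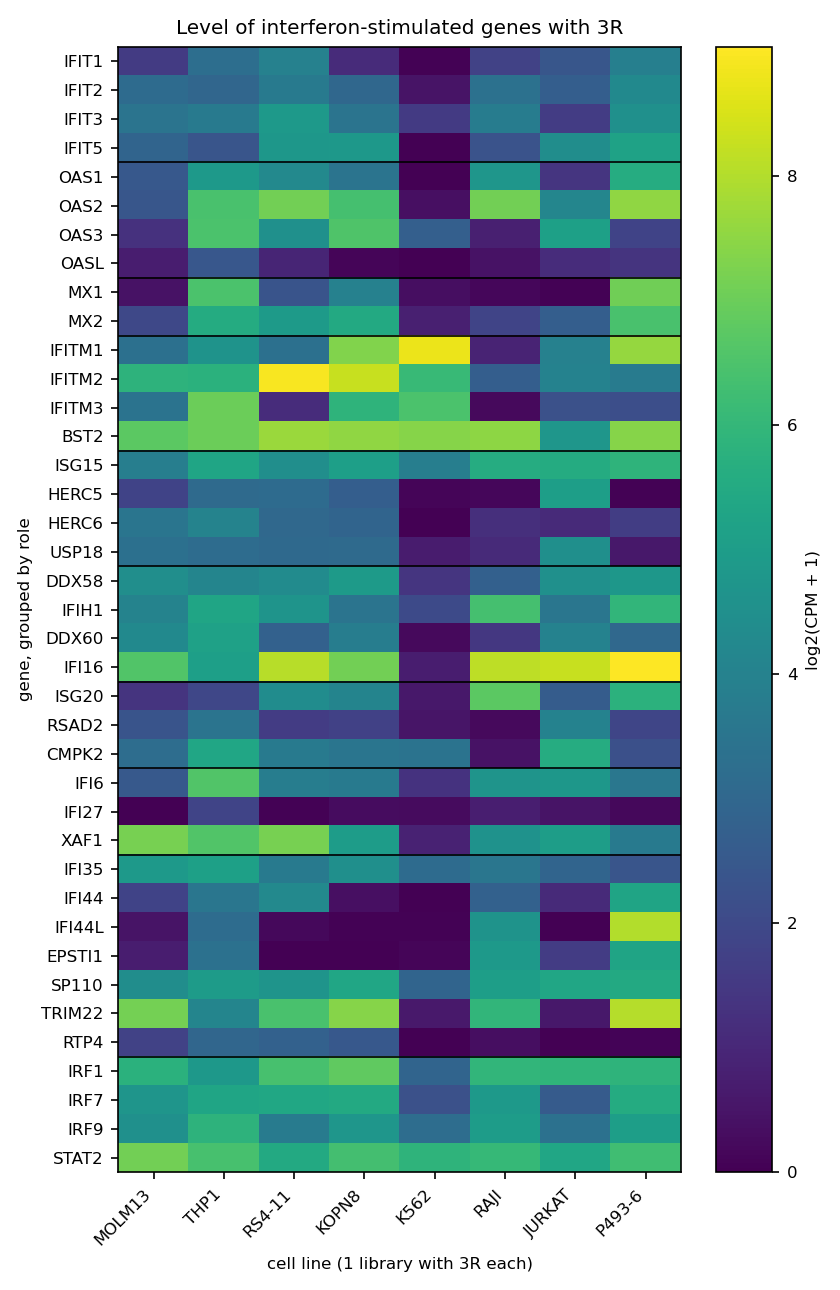
Basal level of the 39 genes, grouped by role down the page, in the 3R library of each of the 8 lines, as log2 of CPM plus 1. Brighter cells are higher and darker cells are lower. K562, with 6 genes at 10 CPM or more, is the darkest column, and THP1, KOPN8, P493-6 and RS4-11, with 26 to 28, are the brightest.

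The design allows a test over lines. With the cell line as a block, edgeR's quasi-likelihood test called 0 of the 37 tested genes at an adjusted p under 0.05 over all 8 lines, and 0% of all 13043 genes. The median log2 change of the 37 was 0.08, with 26 above 0, against a median of 0.00 and 48.3% above 0 for all genes. It was −0.12 without THP1 and 0.17 without RAJI, so its direction rested on THP1. At an unadjusted p under 0.05, 3 of the 37 passed as higher with Y518R and 0 as lower, against 1.36% and 1.66% of all genes. The 3 were MX1 (log2 change 0.64 ± 0.25 SE), RTP4 (0.59 ± 0.26) and IFI16 (0.28 ± 0.13), each with an adjusted p of 0.999. RTP4 was higher with Y518R in 7 of 8 lines and at 0 in both libraries of K562. DESeq2 also called 0 of the 37.

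In the 4 MLL-fusion lines, the median log2 change of the 37 was 0.33 and 34 were above 0, against 49.9% of all genes. edgeR called none of them, as it called 0% of all genes, and DESeq2 called none, against 0.00767% of all genes. At an unadjusted p under 0.05, 7 passed as higher with Y518R and 0 as lower, against 2.97% and 2.87% of all genes. The 7 were EPSTI1, OASL, MX1, OAS3, DDX58, ISG15 and IFI16. EPSTI1 had the largest change, 1.86 ± 0.40 on the log2 scale (SE), with an edgeR adjusted p of 0.573. That SE is from the fit of all 16 libraries, in which both classes share a single estimate of the spread. EPSTI1 was higher with Y518R in all 4 MLL-fusion lines, but at 9 or fewer counts per library in RS4-11 and KOPN8. Without an expression filter, edgeR called EPSTI1, IFI44L and MX1, 3 of the 39, against 0.259% of 20082 genes tested. Without THP1, the median of the 37 in the other 3 MLL-fusion lines was 0.00, and 0 were called.

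In the 4 lines without an MLL fusion, the median log2 change was −0.22 and 9 of 37 were above 0, against 48.1% of all genes. edgeR called none (0% of all genes). At an unadjusted p under 0.05, IRF7 was lower with Y518R (−0.53 ± 0.20) and RTP4 higher (1.91 ± 0.59), against 1.15% lower and 0.399% higher of all genes, and RTP4 had at most 20 counts in any of these libraries. DESeq2 called 0. Without RAJI the median was 0.00.

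The difference between the classes, MLL-fusion minus other lines, had a median of 0.51 with 34 of 37 above 0, against 52.2% of all genes. edgeR called 0 of the 37 and 0% of all genes, and DESeq2 called 0 of the 37 and 0.0153% of all genes. At an unadjusted p under 0.05, 7 had a positive difference (EPSTI1, IFIT2, IFI6, ISG15, IRF7, IFI35 and BST2), against 2.06% of all genes, and 1 a negative one (RTP4), against 1.73%. Leaving out both THP1 and RAJI, an alternative chosen after seeing the data, gave medians of −0.01 over the 6 lines left, 0.01 in the MLL-fusion lines, 0.00 in the others and 0.05 for the difference. The class difference of this list in these data thus rested on 1 line of each class.

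At the basal level, the MLL-fusion lines were compared with the other lines on the 8 libraries with 3R. The median log2 difference of 37 genes was 0.36 and 24 were above 0, against 49.2% of all genes. That median moved with single lines: it was 0.01 without K562, 0.11 without THP1, 0.15 without RAJI, 0.24 without KOPN8 and 0.79 without P493-6. With the Y518R libraries in place of the 3R libraries it was 0.94. edgeR called 0 of the 37, against 0.0534% of all 13107 genes tested. DESeq2 called IFITM2, IFI35 and RTP4, 3 of the 34 to which it gave an adjusted p (MX1, HERC5 and USP18 had none), against 3.76% of the 12673 such genes. At an unadjusted p under 0.05, edgeR had 5 that were higher in the MLL-fusion lines and 0 that were lower, against 5.4% and 4.69% of all genes. The 5 were IFITM2, HERC6, XAF1, IFI35 and RTP4.

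IFI35 was at 12.4 to 34.0 CPM in the 4 MLL-fusion lines and at 4.26 to 10.8 CPM in the 4 others. HERC6 was at 6.53 to 15.5 CPM in the MLL-fusion lines and at 0 to 2.11 CPM in the others. RTP4 was at 2.44 to 6.93 CPM in the MLL-fusion lines and at 0 to 0.264 CPM in the others. The groups of lines did not overlap for these 3 of the 37 genes, as for 4.14% of all genes with the MLL-fusion lines above. None of the 37 had all MLL-fusion lines below, as did 3.32% of all genes. IFITM2 overlapped, at 53.4 to 490 CPM in the MLL-fusion lines and 5.55 to 66.7 CPM in the others. XAF1 overlapped barely, at 31.3 to 144 CPM in the MLL-fusion lines and 0.806 to 32.1 CPM in the others. The lines of a class differ in lineage too, and fusion and lineage cannot be told apart with 4 lines a class.

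The interferon pathway around these genes was read from lists of its other parts. No interferon ligand reached 1 CPM in any library: of 21 ligand genes, 11 were at 0 counts in all 16 libraries. IFNA2 was the only one with 10 or more counts anywhere, at 4 counts with Y518R and 11 counts with 3R in P493-6. In THP1 the ligands together had 1 count with Y518R and 2 counts with 3R. At this depth 3 counts in THP1 are 0.0978 CPM with Y518R and 0.0949 CPM with 3R. A level under that was not detectable.

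The receptors were present and differed little in THP1. IFNAR1 had 93.6 CPM with Y518R and 86.7 CPM with 3R, and IFNAR2 had 72.5 CPM with Y518R and 70.4 CPM with 3R. IFNGR1, of the receptor for type II interferon, had 151 CPM with Y518R and 110 CPM with 3R. The 8 receptor and kinase genes at 10 CPM or more had a median log2 ratio of 0.11 in THP1 and −0.30 in RAJI, where JAK2 had 13.1 CPM with Y518R and 27.0 CPM with 3R and TYK2 had 146 CPM with Y518R and 208 CPM with 3R. None of the 9 listed receptor and kinase genes was called by edgeR in any of the 4 peptide comparisons, and none had an unadjusted p under 0.05.

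Among other IRFs and STATs, IRF4, a B cell factor, had 26.6 CPM with Y518R and 57.3 CPM with 3R in RAJI, and the median log2 ratio of 9 such genes was 0.13 in THP1.

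Among 32 further interferon-stimulated genes at 10 CPM or more in THP1, the median log2 ratio was 0.67. Of them 29 were above 0, against 48.5% of all genes at that level, and 9 were 2-fold or more higher, against 2.14%. IFI30, a lysosomal reductase, had 108 CPM with Y518R and 27.0 CPM with 3R, and GBP2, a guanylate-binding protein, had 1320 counts with Y518R and 429 counts with 3R. PARP14 had 234 CPM with Y518R and 96.2 CPM with 3R. In RAJI the median over 26 such genes was −0.11 and 1 was 2-fold lower, against 1.19% of all genes at that level. That gene was SAMD9L, an antiviral factor, at 113 counts with Y518R and 317 counts with 3R.

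Sensing and adaptor genes had medians near 0 in both lines, 0.03 in THP1 and 0.01 in RAJI, although EIF2AK2 (PKR), a kinase that senses double-stranded RNA, had 104 CPM with Y518R and 49.2 CPM with 3R in THP1. Negative regulators had a median of 0.18 in THP1 and −0.08 in RAJI, where SOCS1, a brake on the receptor kinases, had 24.1 CPM with Y518R and 47.3 CPM with 3R.

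Of the inflammatory genes, some differed between the peptides in THP1 and RAJI and others did not. In THP1, TNF had 67.4 CPM with Y518R and 25.1 CPM with 3R, and ICAM1 had 14.4 CPM with Y518R and 3.99 CPM with 3R, while the NF-kappaB target NFKBIA had 87.9 CPM with Y518R and 83.8 CPM with 3R and TNFAIP3, a brake on NF-kappaB, had 49.5 CPM with Y518R and 52.3 CPM with 3R. In RAJI, TNFAIP3 had 166 CPM with Y518R and 384 CPM with 3R, and NFKBIA had 116 CPM with Y518R and 238 CPM with 3R. Over the 4 of 10 listed genes at 10 CPM or more, the median was 0.75 in THP1 and −0.81 in RAJI. All 10 listed genes summed to 234 CPM with Y518R and 172 CPM with 3R in THP1. In RAJI they summed to 442 CPM with Y518R and 861 CPM with 3R. Lines in which the antiviral medians were near 0 also had differences. In MOLM13 the listed genes summed to 330 CPM with Y518R and 401 CPM with 3R. There 7 of 9 listed genes at 1 CPM or more were below 0, as were 6395 of all 12473 genes at that level. In K562 TNFAIP3 had 35.8 CPM with Y518R and 22.3 CPM with 3R. The part of these genes in the ratios of the antiviral genes was not tested.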

How the data were processed

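The deposited values are counts of whole reads per gene symbol, not normalized, in 16 libraries of polyadenylated RNA, per the labels' protocols. The submitters' processing notes list HTSeq 0.6.1, TopHat2 2.1.1, CASAVA 1.8.4, DESeq and DESeq2 3.0, and the builds hg19 and GRCh38, without the step each was for. How strand was treated in counting is not stated, so near copies (the IFITM genes) and overlapping genes may share reads. The 5 entries that name no gene were left out of library sizes and tests; reads in no gene were 17.7% to 44.7% and reads shared by several genes 1.37% to 2.18% of a library.

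The genes, their roles and the pathway lists were chosen with earlier results of these data known. The test was that of edgeR 4.0.16 under R 4.3.3 (quasi-likelihood test, TMM scaling, filterByExpr at a minimum count of 10, cell line as block, Benjamini-Hochberg adjustment over all genes tested, calls at an adjusted p under 0.05), with DESeq2 1.42.0 as an alternative. The SE of a change is its size over the root of F. All 16 libraries entered the peptide fits and the 8 libraries with 3R entered the basal fit. The script was tested on simulated counts. Other alternatives were RLE scaling, no expression filter, no block, each line left out, and for single lines a prior count of 0.5, 1 CPM as the minimum, library totals as the scale and, added after seeing the data, 10 CPM as the mean of both libraries or in both.

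The numbers of replicates stand for the cell lines in the labels, which pair the libraries: the correlation of deviations from each peptide's mean was 0.945 to 0.972 inside a line and 0.407 or less with another line. The libraries of a line differed beyond sampling noise, with a chi-square per degree of freedom of 8.57 to 64.2. The labels do not say that libraries of different peptides came from repeated cultures, so p-values measure the spread between lines, part of which may be technical. Ratios within a line have no test; intervals are exact 95% binomial intervals of the ratio of counts, with a floor of 3 counts, and cover counting error only. Named were the genes past 2-fold in THP1 or RAJI at 10 CPM or more, the transcription factors, the receptors, ligands with 10 or more counts and up to 5 genes of each other list with the largest ratios; for brevity their values are given for THP1, RAJI and the range of the 6 other lines. 1 gene of the pathway lists that this rule names is not reported here. Promoters are those of RefSeq (GRCh38.p14).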

Additional observations from a re-analysis of the deposited data

Results flagged for a closer look

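In 11 of the 37 tested genes, the log2 ratio of 1 line, Y518R over 3R, stood apart from those of the 7 other lines by Dixon's gap test for 8 values at the 95% level. Chance flags about 1 in 20 such groups, the genes share libraries, and 12.7% of all 13043 genes were set apart by the same test. In 6 genes the line was THP1: OAS3 at 1.87 (next highest 0.32), DDX58 at 1.53 (0.32), USP18 at 1.52 (0.04), IFI16 at 1.45 (0.48), ISG15 at 1.43 (0.26) and SP110 at 1.04 (0.23). In 4 genes it was RAJI: IFIT1 at −5.15 (next lowest −0.11), DDX60 at −4.69 (−0.60), MX2 at −3.93 (−0.53) and IRF9 at −0.91 (−0.17). The first 3 of these had 0 to 2 counts with Y518R in RAJI, so their log2 values depend on the prior count. In 1 gene it was RS4-11, IFITM3 at −1.58 (next lowest −0.07), on 12 counts with Y518R and 53 counts with 3R.

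By the same test, the median log2 ratio of the antiviral genes in THP1, 1.38, stood apart from the 7 other lines, of which RS4-11 was next at 0.04. The list was proposed with the THP1 and RAJI ratios known, so this restates them and is no independent support. The RAJI median of −0.56 did not stand apart by that test. Among the 3R libraries, the share of reads in no gene stood apart in RAJI, at 44.7%, with P493-6 next at 26.3%.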

How the results depend on the processing

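The direction of the THP1 and RAJI medians held under a prior count of 0.5, a minimum of 1 CPM, scaling by library totals and, chosen after seeing the data, 10 CPM as the mean of both libraries or in both. The 6 genes at least 2-fold lower in RAJI became 13 at 1 CPM, 5 at 10 CPM as the mean and 2 at 10 CPM in both. The shares of all genes at 1 CPM and at 10 CPM as the mean were not counted. Without an expression filter, edgeR called 3 genes over all 8 lines, 52 in the MLL-fusion lines (3 of the antiviral genes), 1 in the other lines and 9 for the difference (2 of the antiviral genes, EPSTI1 and IFI44L, against 0.0448% of all genes). DESeq2 called 1 gene in the MLL-fusion lines, 2 for the difference and 477 at the basal level (3 of the antiviral genes), where edgeR called 7. The Y518R libraries in place of the 3R libraries gave 4 basal calls. As each line was left out in turn, edgeR's calls ran from 0 to 3 in the MLL-fusion lines, from 0 to 1 for the difference and from 4 to 11 at the basal level. Without MOLM13 there were 3 calls in the MLL-fusion lines and 4 at the basal level. Spearman's correlation of basal level with ratio over the lines was 0.643 with the mean level of both peptides and 0.179 to 0.679 as each line was left out, lowest without K562, highest without P493-6 and 0.571 without MOLM13. The cause of these shifts was not tested. Without the block for cell line, which drops the pairing of libraries, edgeR called 0 genes in each peptide comparison, and the medians of the antiviral genes were 0.234 over all 8 lines, 0.481 in the MLL-fusion lines, −0.0567 in the others and 0.659 for the difference. With 1 library per line and peptide, depth limits genes under about 3 counts, such as MX1 and RSAD2 in RAJI.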
